A study of Mus musculus with 7 samples.

Results

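Prdm16 and 8 related PRDM genes were examined in the retinal pigment epithelium (RPE), the pigmented layer behind the photoreceptors, of aged mice. The genes were the rows of the deposited count table whose symbol was Prdm16, Mecom, Prdm1, Prdm2, Prdm4, Prdm8, Prdm10, Prdm11 or Prdm15, and all 9 were found among its 21861 rows. Prdm16 was selected on these same libraries, from its higher level in the AAV-GSTA4 libraries than in the AAV-GFP libraries, and the other 8 were taken as its family. The Prdm16 difference is therefore given as a description with no test.

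The 7 libraries came from aged RPE collected 12 weeks after an adeno-associated virus (AAV) vector was given. In 3 libraries the vector carried GFP, the vector control, and in 4 it carried GSTA4, a glutathione transferase that conjugates aldehydes from lipid peroxidation. No untreated group was analysed here. Strain, sex, age in months, the promoter of the vectors and whether each library was 1 animal or a pool are not given in the sources used here, so p-values measure only the spread between these libraries.

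PRDM proteins carry a PR domain, a relative of the SET domain of histone methyltransferases, and most of them also carry zinc fingers that bind DNA. Some methylate histones themselves and others recruit co-repressors, co-activators or methyltransferases. PRDM16 is best known from brown fat, where it partners with C/EBP-beta and PGC-1alpha to turn on thermogenic genes, and MECOM (PRDM3) is its closest relative. In the eye, PRDM1 steers retinal precursors to the photoreceptor fate, and PRDM8 is needed for subtypes of bipolar neuron.

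Prdm16 and Mecom share a stretch of sequence near their transcription start sites. Promoter windows of 300 bases (250 before and 50 after the start, RefSeq, GRCm38.p6) were matched for 8 of the 9 genes, all but Prdm2. The window of Prdm16 lies on the minus strand at chr4:154636824-154637123 and 1 of the 2 windows of Mecom lies on the minus strand at chr3:30509710-30510009. They are shown because they hold the longest run shared by the windows of different members, 24 bases in capitals, written 5′ to 3′.
Prdm16: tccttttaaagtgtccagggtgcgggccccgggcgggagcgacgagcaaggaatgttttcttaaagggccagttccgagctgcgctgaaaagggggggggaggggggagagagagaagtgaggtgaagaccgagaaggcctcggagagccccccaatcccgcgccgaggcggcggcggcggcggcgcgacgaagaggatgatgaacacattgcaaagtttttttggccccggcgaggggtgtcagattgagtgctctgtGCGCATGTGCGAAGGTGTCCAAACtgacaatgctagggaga
Mecom: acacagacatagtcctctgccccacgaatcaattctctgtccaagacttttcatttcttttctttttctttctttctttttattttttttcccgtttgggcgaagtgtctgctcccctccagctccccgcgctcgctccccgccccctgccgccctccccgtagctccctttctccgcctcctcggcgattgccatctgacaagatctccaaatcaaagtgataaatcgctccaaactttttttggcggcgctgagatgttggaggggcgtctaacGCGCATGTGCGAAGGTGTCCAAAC
Counted from the first transcribed base as 1, the run covers bases 10 to 33 in Prdm16 and 27 to 50 in Mecom, where the window ends. Of 32851 mouse promoter windows, 2 (0.00609%) held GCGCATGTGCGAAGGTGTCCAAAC on either strand, and both are printed here. Each of the other 61 pairs of windows from different members shared a run of 7 to 12 bases, with pairs compared in the direction of transcription only. The shared run is a description of sequence and says nothing about what binds there.

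One library stood apart from the rest. AAV-GFP replicate 3 had a mean correlation of log2 CPM (counts scaled to a common library size, with TMM factors) of 0.838 with the other libraries, against 0.910 to 0.926 for the rest, and the highest scaling factor, 1.36 against 0.868 to 1.05. Totals ran from 15329181 to 28998964 counts, so a count of 3, taken as the detection floor, equalled 0.111 to 0.176 CPM. The 13 RPE markers were detected in every library, but their summed level was 23362 CPM in AAV-GFP replicate 3, against 56698 to 110345 CPM elsewhere. Rod markers were present in every library too, at 15252 to 39371 CPM in AAV-GFP and 7391 to 13650 CPM in AAV-GSTA4. Y-linked genes summed to 464 CPM in 1 AAV-GFP library and to 407 and 306 CPM in 2 AAV-GSTA4 libraries, against at most 2.83 CPM in the other 4. In bulk RNA a smaller number of cells of a type and less RNA per cell cannot be told apart.

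Prdm16, the zinc-finger regulator of brown-fat identity, lies on chromosome 4 (GRCm38, 154316125 to 154636873, minus strand). The AAV-GFP libraries, replicates 1 to 3 in order, gave it 397, 702 and 361 counts, which equal 18.5, 27.1 and 17.3 CPM. The AAV-GSTA4 libraries, replicates 1 to 4, gave it 869, 1002, 1038 and 1242 counts, which equal 45.7, 48.0, 60.9 and 45.8 CPM. All AAV-GSTA4 libraries lay above all AAV-GFP libraries, in the direction for which the gene was chosen. The lowest AAV-GSTA4 library was 1.69-fold above the highest AAV-GFP library. The exact 95% Poisson interval, which covers counting error only and not the spread between libraries, was 25.1 to 29.2 CPM in AAV-GFP replicate 2 and 42.7 to 48.8 CPM in AAV-GSTA4 replicate 1. Group means were 20.96 CPM ± 5.33 (SD, n = 3) and 50.1 CPM ± 7.30 (SD, n = 4), and the fitted log2 fold change was 1.26 ± 0.24 (SE). Of the 15075 genes tested, 219 had a larger fold change.

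**Figure D1:**
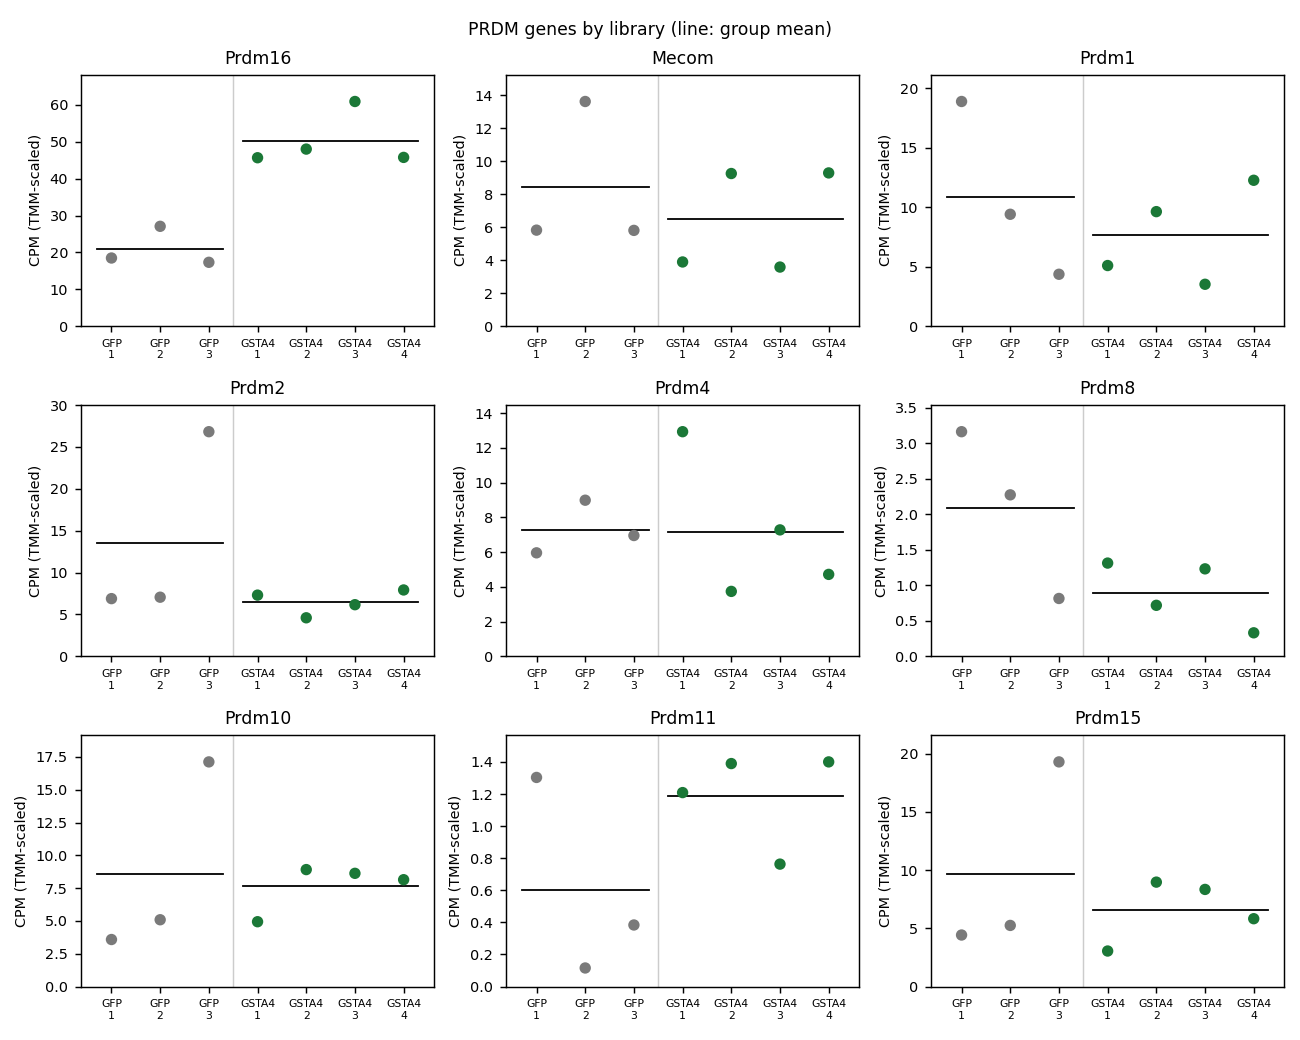
Level of each of the 9 PRDM genes (y axis, CPM, TMM-scaled) in each library (x axis: AAV-GFP replicates 1 to 3 in grey, AAV-GSTA4 replicates 1 to 4 in green). Points are libraries and lines are group means. Prdm16 separates the groups, at 17.3 to 27.1 against 45.7 to 60.9 CPM, and the groups overlap for the other 8.

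The separation of Prdm16 depended on what it was measured against. In CPM computed over the counts of the 13 RPE markers alone, Prdm16 was at 259, 478 and 741 with AAV-GFP and at 562, 774, 552 and 501 with AAV-GSTA4, in replicate order. On this scale the groups overlapped, and AAV-GFP replicate 3, the library low in RPE markers, was the only AAV-GFP library within the AAV-GSTA4 range. Group averages were 493 ± 241 with AAV-GFP (SD, n = 3) and 598 ± 121 with AAV-GSTA4 (SD, n = 4), and the fitted log2 fold change was 0.28 ± 0.47 (SE). Most genes moved with this scale: the median log2 fold change of all tested genes was -1.08 on it, against -0.07 with TMM scaling. Relative to the median of each scale, Prdm16 was higher by 1.36 on the RPE marker scale, by 1.33 with TMM scaling and by 1.34 with library totals, a distance that a change of scale leaves nearly fixed by construction. Without AAV-GFP replicate 3 the log2 fold change with TMM scaling was 1.13 ± 0.25 (SE), and with the RPE marker level as a covariate and all 7 libraries it was 1.05 ± 0.29 (SE). The summed RPE markers themselves were at 71294, 56698 and 23362 CPM in AAV-GFP and 81241, 62065, 110345 and 91285 CPM in AAV-GSTA4, and their part in the Prdm16 difference beyond these values was not tested.

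The hGSTA4 row, read as the transgene from its name, was uneven among the AAV-GSTA4 libraries. It was at 221, 251, 2.64 and 43.6 CPM in the 4 AAV-GSTA4 libraries, in order, and at 0.140 CPM or lower with AAV-GFP. The library with the lowest hGSTA4, replicate 3, had the highest Prdm16 (60.9 CPM) and the highest RPE marker level (110345 CPM). The other 3 AAV-GSTA4 libraries held Prdm16 between 45.7 and 48.0 CPM while hGSTA4 ranged from 43.6 to 251 CPM. Whether Prdm16 follows the hGSTA4 level was not tested.

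**Figure D2:**
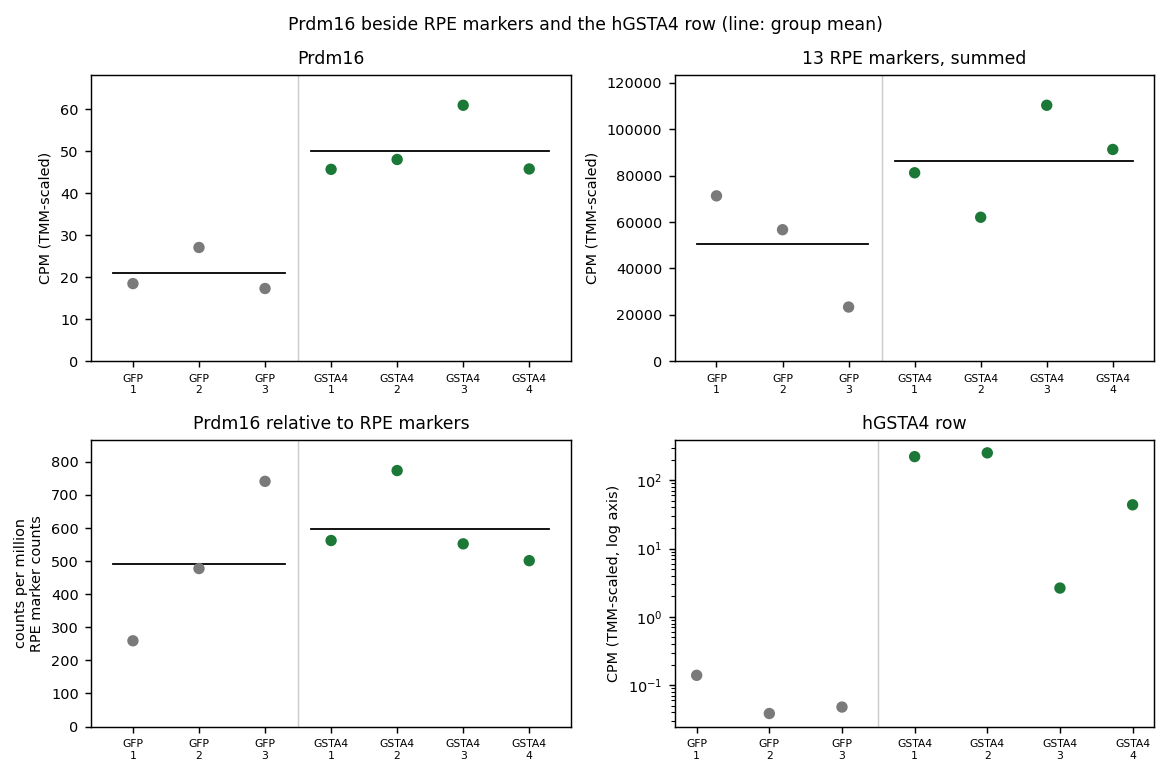
Prdm16 (CPM), the summed 13 RPE markers (CPM), Prdm16 in CPM over RPE marker counts alone, and the hGSTA4 row (CPM, log axis) on the y axes, by library on the x axis. Points are libraries, AAV-GFP in grey and AAV-GSTA4 in green, and lines are group means in all panels except hGSTA4. Prdm16 in CPM separates the groups, Prdm16 per RPE marker count does not (259 to 741 against 501 to 774), and AAV-GSTA4 replicate 3 is highest for Prdm16 at 60.9 CPM and lowest of its group for hGSTA4 at 2.64 CPM.

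The other 8 members did not pass the test. All 8 were expressed enough to be tested, and 0 reached an adjusted p under 0.05 by edgeR's quasi-likelihood test, adjusted by Benjamini-Hochberg over 15075 genes, where 0% of all tested genes did. None had an unadjusted p under 0.05 either, against 5.27% of tested genes higher and 6.63% lower. Limma-voom with quality weights also called 0 of the 8, and 0 of all 15075 genes. DESeq2, which called 201 of the 15075 genes, called 0 of the 6 for which it gave an adjusted p, all but Prdm8 and Prdm11. No group separation was seen among them, whereas 6.44% of tested genes had all AAV-GSTA4 libraries higher and 5.61% had them all lower. Their log2 fold changes ran from -1.22 to 0.99 with a median of -0.44, beside a median of -0.07 over all tested genes. Of the 8, 7 were below 0, as were 8355 of the 15075 tested genes. The signs of Mecom, Prdm1, Prdm4, Prdm10 and Prdm15 changed when single libraries were left out. In CPM over RPE marker counts alone, 3 of the 8 had all AAV-GSTA4 libraries lower and 0 had them all higher, where 20.7% of tested genes were lower and 0.259% higher without overlap. These were Prdm1, at 166 to 265 against 31.9 to 155, Prdm2, at 96.7 to 1148 against 55.9 to 89.96, and Prdm8, at 34.9 to 44.4 against 3.63 to 16.2.

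**Figure D3:**
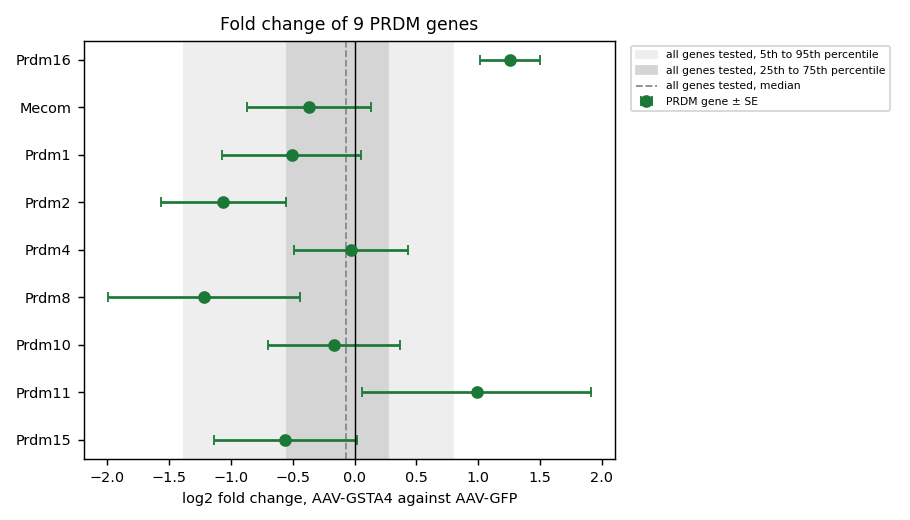
Log2 fold change (x axis, AAV-GSTA4 over AAV-GFP) for each PRDM gene (y axis), with bars of 1 standard error. Shaded bands hold the middle 50% and 90% of the 15075 tested genes and the dashed line is their median, -0.07. Prdm16, chosen for its difference, is at 1.26 ± 0.24, and the other 8 lie between -1.22 and 0.99.

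Mecom and Prdm1 varied several-fold between libraries of one group. Mecom encodes the PRDM3 regulator of blood stem cells, and Prdm1 encodes BLIMP1, a repressor that also directs plasma cell differentiation. Mecom lies on chromosome 3 (GRCm38, 29951296 to 30548008, minus strand). It stood at 5.82, 13.6 and 5.80 CPM with AAV-GFP (replicates 1 to 3) and at 3.89, 9.25, 3.58 and 9.29 CPM with AAV-GSTA4 (replicates 1 to 4). The fitted difference was -0.37 ± 0.50 on the log2 scale (SE; adjusted p = 0.793, edgeR). Prdm1 was at 18.9, 9.41 and 4.37 CPM in AAV-GFP and at 5.10, 9.64, 3.52 and 12.3 CPM in AAV-GSTA4, with a log2 fold change of -0.51 ± 0.56 (SE) and an adjusted p = 0.741 in edgeR's test. Both genes were lower in AAV-GSTA4 replicates 1 and 3 than in replicates 2 and 4, and neither separated the groups. The direction of each rested on 1 library: it was 0.17 for Mecom without AAV-GFP replicate 2 and 0.15 for Prdm1 without AAV-GFP replicate 1.

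Markers of the ocular surface epithelium and a pigment gene were also lower in AAV-GSTA4 replicates 1 and 3 than in 2 and 4. The 5 ocular surface epithelium markers summed to 54.9, 507, 61.7 and 614 CPM across AAV-GSTA4 replicates 1 to 4, and to 553, 614 and 474 CPM in AAV-GFP. Most of this was Krt15, a basal keratin, at 44.6, 448, 51.8 and 551 CPM in AAV-GSTA4, and Trp63, the p63 factor of basal epithelia, had 0 counts in replicate 1. Tyrp1, a melanin synthesis enzyme, was at 247, 737, 317 and 649 CPM in these libraries and at 888, 938 and 195 CPM in AAV-GFP. It is 1 of the 13 RPE markers and was named after its values were seen. The sum of all 13 had another order, with replicate 3 highest and replicate 2 lowest. Arterial endothelial markers, at 8.94, 11.5, 5.87 and 14.7 CPM, and mural cell markers, at 327, 449, 308 and 352 CPM, were likewise lower in replicates 1 and 3 than in 2 and 4 of AAV-GSTA4. Mueller glia markers kept this order too, at 611, 728, 584 and 634 CPM. General endothelial markers, at 66.4, 57.0, 49.4 and 58.5 CPM, and lymphocyte markers, at 12.6, 11.1, 7.63 and 11.5 CPM, were highest in replicate 1. Macrophage markers had the reverse order, at 740, 612, 871 and 714 CPM. Rod markers did too, at 13650, 12013, 12745 and 7391 CPM, as did bipolar and amacrine markers, at 600, 236, 378 and 336 CPM. Fibroblast, adipocyte, cone and lens markers had neither order. In AAV-GFP, general endothelial markers summed to 43.5 to 199 CPM and lymphocyte markers to 6.29 to 16.5 CPM. The part of other cell types in the Mecom and Prdm1 levels was not tested.

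**Figure D4:**
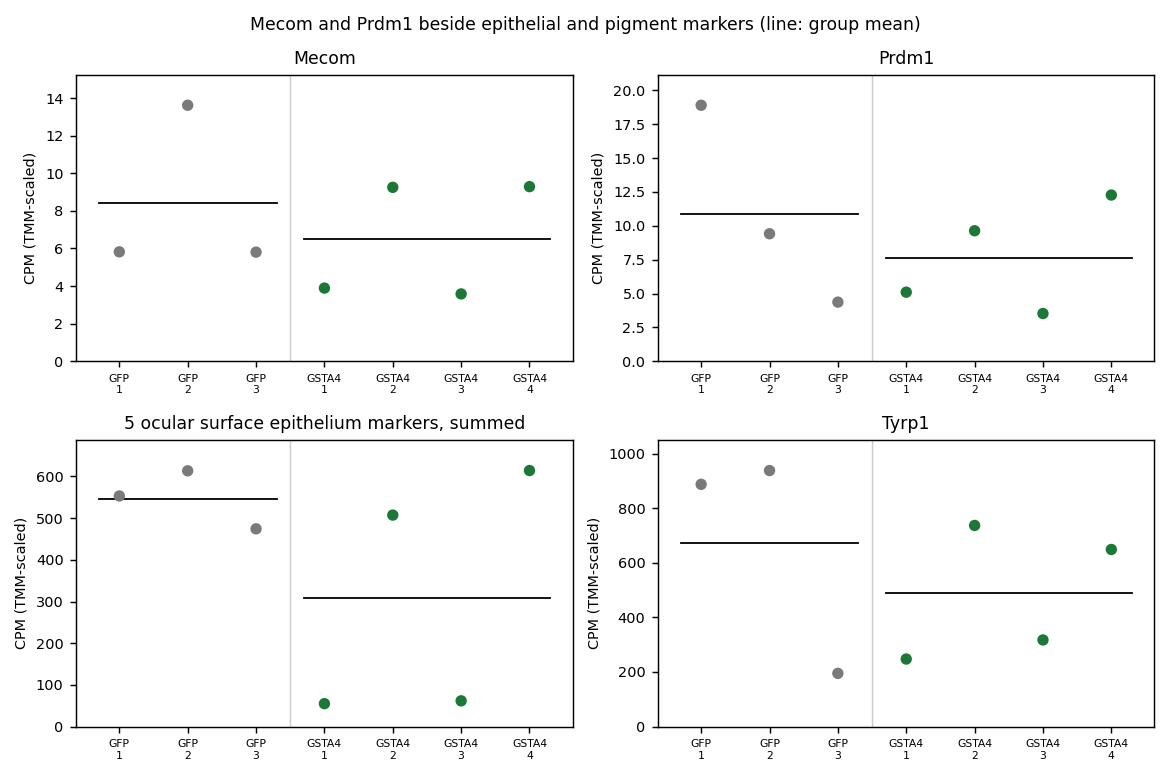
Mecom, Prdm1, the summed 5 ocular surface epithelium markers and Tyrp1 (y axes, CPM, TMM-scaled) by library (x axis; AAV-GFP grey, AAV-GSTA4 green, lines are group means). Tyrp1 is 1 of the 13 RPE markers, whose sum had another order. In AAV-GSTA4, replicates 1 and 3 are below replicates 2 and 4 in every panel, as for Mecom at 3.89 and 3.58 against 9.25 and 9.29 CPM.

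Prdm2, Prdm10 and Prdm15 shared a single high library. Prdm2 encodes RIZ, a histone H3 lysine 9 methyltransferase, Prdm10 encodes an activator of the tumour suppressor gene Flcn, and Prdm15 encodes a regulator of pluripotency that acts on Rspo1 and Spry1. Prdm2 stood at 6.89, 7.06 and 26.8 CPM with AAV-GFP (replicates 1 to 3) and at 7.31, 4.60, 6.17 and 7.92 CPM with AAV-GSTA4 (replicates 1 to 4). Prdm10 was at 3.59, 5.09 and 17.1 CPM in AAV-GFP and at 4.94, 8.92, 8.63 and 8.15 CPM in AAV-GSTA4. Prdm15 was at 4.42, 5.25 and 19.3 CPM in AAV-GFP and at 3.05, 8.96, 8.34 and 5.82 CPM in AAV-GSTA4. AAV-GFP replicate 3 exceeded the highest other library 3.38-fold for Prdm2, 1.92-fold for Prdm10 and 2.15-fold for Prdm15.

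That library set the direction of all 3 fold changes or most of their size. With all 7 libraries the log2 fold changes were -1.06 ± 0.50 (SE) for Prdm2, -0.17 ± 0.53 for Prdm10 and -0.56 ± 0.58 for Prdm15, with adjusted p = 0.438, 0.924 and 0.725 in edgeR's test. Without AAV-GFP replicate 3 they were -0.10, 0.82 and 0.44. Beside these genes, 1488 olfactory and vomeronasal receptor genes, which serve smell, summed to 35.8, 26.9 and 607 CPM in AAV-GFP and to 43.1, 129, 95.6 and 109 CPM in AAV-GSTA4. Receptor counts were thus highest in AAV-GFP replicate 3, and within AAV-GSTA4 the library lowest in receptor counts, replicate 1, was also lowest for Prdm10 and Prdm15. Prdm2 differed in this: within AAV-GSTA4 it was lowest, at 4.60 CPM, in replicate 2, which had the most receptor counts. Prdm9, the meiotic recombination factor and not among the 9 genes, was likewise highest in AAV-GFP replicate 3, at 21.6 CPM against 4.84 to 10.2 CPM. Of the 1488 receptor genes, 1477 had 0 counts in at least 1 library. AAV-GFP replicate 3 was also the highest library for rod, cone, bipolar and amacrine, general endothelial and arterial endothelial markers. It was the lowest for RPE, mural cell, fibroblast, macrophage and lens markers. What the receptor counts or these cell types contribute to the levels of the 3 genes was not tested.

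**Figure D5:**
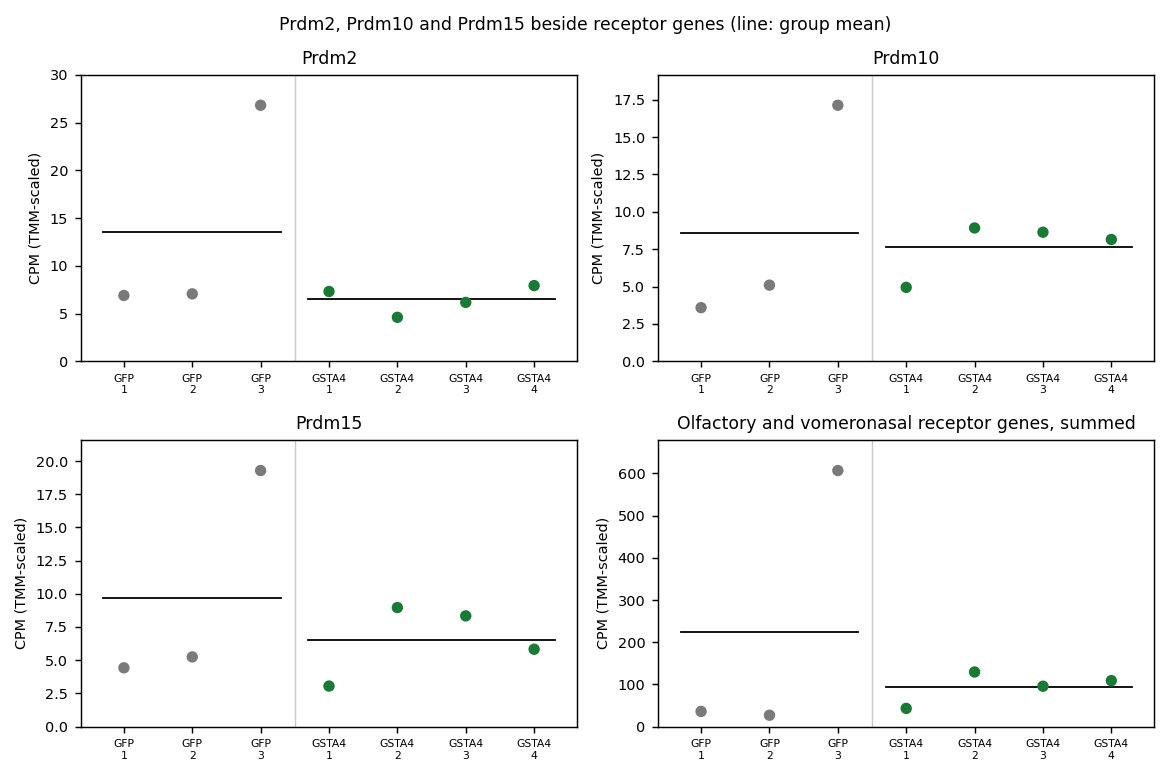
Prdm2, Prdm10, Prdm15 and the summed olfactory and vomeronasal receptor genes (y axes, CPM, TMM-scaled) by library (x axis; AAV-GFP grey, AAV-GSTA4 green, lines are group means). AAV-GFP replicate 3 is the highest point in every panel, at 26.8, 17.1, 19.3 and 607 CPM.

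Prdm4, Prdm8 and Prdm11 completed the family. Prdm4, whose product recruits the arginine methyltransferase PRMT5, was at 5.96, 8.99 and 6.96 CPM in AAV-GFP and at 12.9, 3.74, 7.28 and 4.72 CPM in AAV-GSTA4. Of the family its log2 fold change was the nearest to 0, -0.03 ± 0.46 (SE), with a 95% interval of -1.07 to 1.01 and an adjusted p = 0.987 in edgeR's test. Prdm8, the bipolar cell regulator, had 9 to 68 counts and was at 3.17, 2.28 and 0.816 CPM in AAV-GFP and at 1.31, 0.719, 1.23 and 0.332 CPM in AAV-GSTA4. AAV-GFP replicates 1 and 2 were above every AAV-GSTA4 library and replicate 3 was among them, and its log2 fold change of -1.22 ± 0.78 (SE) had an adjusted p = 0.543 in edgeR's test. Bipolar and amacrine markers summed to 360 to 714 CPM in AAV-GFP and 236 to 600 CPM in AAV-GSTA4, and were highest in AAV-GFP replicate 3. Prdm11, which had 3 to 38 counts, was at 1.30, 0.116 and 0.384 CPM in AAV-GFP and at 1.21, 1.39, 0.763 and 1.40 CPM in AAV-GSTA4. AAV-GFP replicate 2 was at the floor of 3 counts, and the log2 fold change of 0.99 ± 0.93 (SE) had an adjusted p = 0.692 in edgeR's test.

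Per kilobase of exon, Prdm16 had the highest mean level of the 9 in each group, with a lead beyond the spread in AAV-GSTA4, the group for whose high level it was chosen. Exon lengths came from GENCODE M21 (GRCm38) as the union over a gene's transcripts, 9.32 kb for Prdm16, which may not be the annotation the authors counted on. In AAV-GSTA4, Prdm16 was at 5.38 CPM per kb ± 0.784 (SD, n = 4), followed by Prdm4 at 1.46 ± 0.839 and Prdm1 at 1.37 ± 0.723. In AAV-GFP, Prdm16 was at 2.25 CPM per kb ± 0.572 (SD, n = 3), followed by Prdm1 at 1.95 ± 1.32, Prdm2 at 1.83 ± 1.54 and Prdm4 at 1.49 ± 0.314. The AAV-GFP levels of Prdm16, Prdm1 and Prdm2 were thus within 1 SD of each other, and single AAV-GFP libraries reached 3.39 for Prdm1 and 3.61 for Prdm2. In AAV-GSTA4 Prdm16 was separated from the next gene by more than the spread of either. Averaged over all 7 libraries, Prdm10, Prdm15, Mecom and Prdm8 followed at 0.871, 0.694, 0.589 and 0.290 CPM per kb. Prdm11 was lowest, at 0.0550 CPM per kb.

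Further PRDM genes gave 0 calls in edgeR's test, where 0 of all 15075 tested genes were called. Prdm13, a factor of amacrine neurons, had 2 to 5 counts in AAV-GFP and 10 to 17 in AAV-GSTA4, or 0.0772 to 0.233 against 0.553 to 0.894 CPM. Its groups did not overlap, as was so for 6.44% of tested genes in the same direction. Its low AAV-GFP counts mean that it passed the expression filter through AAV-GSTA4 only. The lack of overlap therefore follows in part from the filter. Its log2 fold change of 2.08 ± 0.96 (SE) had an adjusted p = 0.432 in edgeR's test. Prdm9 had a log2 fold change of -0.86 ± 0.51 (SE), and Prdm14 had 0 counts in 3 libraries. Prdm6 and Prdm12, at most 11 and 19 counts in a library, were not tested.

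Genes of proteins known to work with PRDM16 gave 0 calls, as did all 15075 tested genes. Of 17 partner genes, 16 could be tested, none of which had an adjusted p under 0.05 (0 of 16) in edgeR's test, and their median log2 fold change was -0.09. At an unadjusted p under 0.05, 0 of the 16 were higher and 2 lower, beside 5.27% and 6.63% of all tested genes. The 2 were Hdac2, a histone deacetylase, and Ppargc1b, a relative of PGC-1alpha, both named after their values were seen. Ppargc1a, which encodes PGC-1alpha, the co-activator of mitochondrial genes, was at 73.1, 77.5 and 58.0 CPM in AAV-GFP and at 82.7, 82.7, 108 and 95.5 CPM in AAV-GSTA4. Its groups did not overlap, but its log2 fold change of 0.41 ± 0.21 (SE) had an adjusted p = 0.463 in edgeR's test. Of the 16 partners, 2 were higher without overlap (Ppargc1a and Skil) and 2 lower (Hdac2 and Ski), beside the 6.44% and 5.61% of all tested genes, and Skil and Ski were named after their values were seen. The co-repressors Ctbp1 and Ctbp2, which bind PRDM16 directly, had log2 fold changes of -0.20 ± 0.32 and 0.07 ± 0.32 (SE), and the value for Ctbp2 was -0.29 with library totals. Hdac1, another histone deacetylase, averaged 87.4 ± 37.3 CPM with AAV-GFP (SD, n = 3) and 112 ± 17.2 CPM with AAV-GSTA4 (SD, n = 4). Smad2, a TGF-beta signal transducer, averaged 50.9 ± 6.24 and 50.03 ± 7.55 CPM (SD, same n).

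The brown-fat genes that PRDM16 raises in adipocytes gave 0 calls, where 0 of all 15075 tested genes were called. Ucp1, the uncoupling protein that makes brown fat produce heat, had 0 to 3 counts in every library, at or under the floor. Of 13 thermogenic genes, 12 were in the table and 8 were tested, with 0 at an adjusted p under 0.05 in edgeR's test and a median log2 fold change of -0.20. At an unadjusted p under 0.05, beside 5.27% of all tested genes higher and 6.63% lower, 0 of the 8 were higher and 2 lower. These were Dio2, the enzyme that activates thyroid hormone, at 1.29 against 4.16 CPM on average and named after its values were seen, and the fatty acid carrier Fabp3, at 7.20 against 15.04 CPM. Cox8b, a subunit of cytochrome oxidase, was the most abundant, averaging 277 ± 147 CPM with AAV-GFP (SD, n = 3) and 284 ± 102 CPM with AAV-GSTA4 (SD, n = 4). Cox7a1, another such subunit, had a log2 fold change of -0.43 ± 0.48 (SE), and Acot2, a mitochondrial thioesterase, 0.56 ± 0.48. The adipocyte markers Adipoq and Plin1 had 0 to 82 and 0 to 12 counts in a library.

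Partners and targets of the other members gave no call either, like all 15075 tested genes. Of 14 such genes, 14 were tested, 0 passed in edgeR's test, and the median log2 fold change was 0.15. Rspo1, a Wnt-enhancing secreted factor named after its values were seen, was the 1 gene with an unadjusted p under 0.05, with a log2 fold change of 3.72 ± 1.35 (SE) and an adjusted p = 0.374 in edgeR's test. It was at 11.2 CPM in AAV-GSTA4 replicate 2 and at 0 to 2.84 CPM elsewhere, and that library also had the highest summed lens markers, 52167 CPM against 1600 to 12686 CPM. The PRDM10 target Flcn and the PRDM4 partner Prmt5 had log2 fold changes of 0.15 ± 0.27 and 0.31 ± 0.24 (SE), which were -0.21 and -0.01 with library totals. Xbp1, a secretory stress factor of the BLIMP1 pathway, had a log2 fold change of 0.36 ± 0.24 (SE). The 6 other enzymes that methylate lysine 9 of histone H3 ranged from -0.94 to 0.14 with a median of -0.02 and 0 calls. Among them were Ehmt1, which binds PRDM16, at 0.14 ± 0.28 (SE), Ehmt2 at -0.14 ± 0.25, Setdb1 at 0.12 ± 0.36 and Suv39h1 at 0.09 ± 0.25, and the values above 0 were below 0 with library totals.

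The genes most like Prdm16 across the libraries were Thbs1, Mettl16, Trmt2a, Frmpd4 and Srpr. They had the highest Pearson r of log2 CPM with Prdm16 over the 7 libraries among the 11108 other genes whose mean log2 CPM was 2 or more, and r was 0.978 to 0.988. Thbs1, a secreted inhibitor of vessel growth, was at 232, 337 and 227 CPM in AAV-GFP and at 604, 519, 848 and 582 CPM in AAV-GSTA4. Like Prdm16, Thbs1 and the other genes named were highest in AAV-GSTA4 replicate 3, which follows in part from choosing them for likeness to it. All 5 separated the groups, as did Prdm16, which was selected for its higher level in AAV-GSTA4. When any 1 library was left out, 0 to 3 of the 5 remained among the 5 most like Prdm16.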

How the data were processed

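Per the labels' protocols, RNA from 7 libraries was reverse transcribed and amplified with a low-input full-length cDNA kit, and no molecular identifiers are mentioned, so counting intervals do not cover PCR duplication. The authors deposited raw read counts per gene symbol, and the submitters' processing notes name STAR 2.7.1a, featureCounts 1.6.2 and the builds GRCm38 and GRCh38; the annotation, strand setting and multi-mapping rule are not given in the sources used here. Reads of an overlapping or antisense gene could therefore be counted on a member. Columns were matched to samples by the library names in the labels. No member symbol was repeated in the table.

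The counts were analysed with edgeR 4.0.16 (R 4.3.3): TMM scaling, the default expression filter, robust quasi-likelihood F-test, group as the only factor, all 7 libraries, Benjamini-Hochberg adjustment over 15075 genes, threshold 0.05. CPM are TMM-scaled, and log2 CPM used a prior count of 2. Each standard error is the absolute log2 fold change over the root of its F statistic. The test was also run on counts simulated from the mean levels and dispersions of these data, with no library set apart. That run cannot show how the test behaves with a library such as AAV-GFP replicate 3. No 2 libraries agreed within sampling noise.

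Members and lists were chosen with earlier results of these data known. Named were all 9 members, the 4 most abundant tested genes of each list, Ucp1, Ppargc1a, Ctbp1, Ctbp2, any list gene that passed, and the 5 genes most like Prdm16. Some genes that these rules name are not reported here. Receptor genes, hGSTA4, Thbs1 values by library and the marker genes named singly were added after the values were seen. Alternatives were other scalings (DESeq2 1.42.0 size factors, library totals, RPE marker counts), other filters (none, at least 10 counts in every library), DESeq2, limma-voom with quality weights (limma 3.58.1), replicate blocks, marker covariates and leaving out each library.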

Additional observations from a re-analysis of the deposited data

Results flagged for a closer look

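Within the 4 AAV-GSTA4 libraries, 45 levels (members, named genes and summed marker lists) were examined for a library far from the other 3, and 5 were found, where chance gives about 5% of them. Prdm16 was 1 of them: replicate 3, at 60.9 CPM, stood above the other 3 at 45.7 to 48.0 CPM, a gap equal to 0.846 of the range over the 4. Prdm9 was also highest in replicate 3, at 10.2 CPM against 4.84 to 5.71 CPM, a gap of 0.836. Prdm13 was highest in replicate 1, at 0.894 CPM against 0.553 to 0.587 CPM, a gap of 0.899 that rested on 17 counts against 10 to 15. Prdm14 had 0 counts in replicate 1 and 9 to 16 counts, or 0.527 to 0.590 CPM, in the others, a gap of 0.894. Acot2 was lowest in replicate 2, at 3.98 CPM against 13.9 to 15.6 CPM, a gap of 0.860.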

How the results depend on the processing

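The Prdm16 log2 fold change stayed above 0 in all alternatives and between 1.13 and 1.49 when each library was left out. It was 0.97 with library totals, which moved the median of all genes from -0.07 to -0.37, and 0.28 when scaled to RPE marker counts. With a replicate block it was 1.31 (numbers of the titles) and 1.29 (numbers of the library names). Deviations of libraries with equal numbers correlated at -0.09 to 0.01 for the titles and -0.13 to 0.01 for the library names, so the block was not taken as a pairing. Members other than Prdm16 and list genes past the adjusted threshold numbered 0 in all alternatives run for them. Over all genes, edgeR called 0 and DESeq2 201, and 1 gene was called with either replicate block, with the rod covariate or without AAV-GSTA4 replicate 3. An unadjusted p under 0.05 appeared for 1 or 2 members in 7 alternatives, given beside all tested genes higher and lower at that threshold. They were Prdm2 and Prdm15 on the RPE marker scale (14 and 5022 of 15075), and Prdm8 and Prdm11 in limma-voom (1560 and 1733). Prdm2 was under 0.05 with library totals (268 and 2122) and Prdm1 with the rod covariate (492 and 863). Without AAV-GFP replicate 1 (852 and 1136 of 15599) or 2 (576 and 1057 of 15530) it was Prdm2. Without AAV-GFP replicate 3 (1037 and 880 of 15337) it was Prdm8, with a log2 fold change of -1.60. The genes most like Prdm16 shared 0 of 5 with those by Spearman rho, and from 0 to 3 of 5 when a library was left out.

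These log2 fold changes changed sign, those of Prdm2 and Prdm11 (-1.06 and 0.99 with all libraries and no covariate) among them, and none passed the test. With library totals, Ctbp2 was -0.29, Cox8b -0.19, Flcn -0.21, Prmt5 -0.013, Ehmt1 -0.20, Setdb1 -0.25 and Suv39h1 -0.23. In limma-voom with quality weights, which changes both the test and the weight of each library, Prdm10 was 0.68, Prdm15 0.22 and Cox8b -0.19. With a replicate block by title numbers Prdm10 was 0.10 and Cox8b -0.0054, and by library names Prdm4 was 0.076, Prdm10 0.055 and Ctbp1 0.00333. With the rod covariate Prdm2 was 0.13, Prdm4 0.55, Prdm10 1.29, Prdm11 -0.0081 and Prdm15 0.97. With the RPE covariate Prdm2 was 0.17, Prdm10 1.17 and Prdm15 0.75, and with the Y-linked covariate Prdm4 was 0.059 and Prdm10 0.025. The cause was not tested. Prdm8 and Prdm11 had too few counts for the filter of 10 in every library.

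When each library was left out in turn, these log2 fold changes crossed 0: Cox8b -0.34 to 0.39, Ctbp1 -0.35 to 0.016, Ctbp2 -0.092 to 0.39, Ehmt1 -0.095 to 0.34, Ehmt2 -0.25 to 0.026, Flcn -0.035 to 0.51, Mecom -0.59 to 0.17, Prdm1 -0.88 to 0.15, Prdm10 -0.53 to 0.82, Prdm15 -0.90 to 0.44, Prdm4 -0.46 to 0.20, Setdb1 -0.21 to 0.47 and Smad2 -0.12 to 0.058.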
